A study of Aspergillus niger with 6 samples.

Results

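The genes described here are 103 genes of Aspergillus niger with higher transcript levels in mycelium grown on glucose for 48 h than in later stages. The later stages were 24 h of that mycelium on willow and then 5 h after glucose was given back. The 103 genes were chosen from the data. A gene with an identifier beginning with An was taken when the lower of its 2 glucose 48 h values was at least 20 CPM and at least 3 times the highest value in the other 4 libraries. CPM here means counts scaled to the reads assigned to genes in a library, after TMM scaling of the library sizes. The 103 members are 0.730% of the 14114 genes with such an identifier, of 15431 genes listed. Another 17 listed genes without such an identifier met the same level conditions and are not described further.

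The 6 libraries came from shake flask cultures of strain N402, a laboratory strain of this enzyme-producing mould, with 2 cultures (A and B) for each of 3 successive stages. In the first stage, spores were grown for 48 h at 28 °C in medium with 1% glucose. For the willow stage, such mycelium was filtered, washed, and 1.5 g of wet mycelium was kept for 24 h in medium with 1% ball-milled willow. For the third stage, glucose was added to 24 h willow cultures, which were harvested after another 5 h. All cultures therefore began on glucose, and the later stages also share the wash, the transfer and a greater age. These differences cannot be told apart from the carbon source, and the third stage shows only what had returned by 5 h.

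When a mould loses its sugar, it can make fewer transcripts for sugar use and growth, and it makes enzymes that release sugars from the new substrate. Glucose lowers the genes of such enzymes through carbon catabolite repression, in which the repressor CreA acts. Other genes change through regulators of growth and nitrogen use. In moulds, genes of one pathway often lie side by side on the chromosome and are transcribed together. None of the 103 members has a symbol in the reference table used, and no source used here says what their products do, so they are called by their identifiers and no role is given to them.

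Reads assigned to genes numbered 635522 and 758523 on glucose 48 h, 557114 and 434508 in the willow stage, and 775667 and 437314 once glucose had been added. Where a gene had no count in a stage, its limit was set at 3 counts over both libraries, which was 1.95 CPM on glucose 48 h, 3.40 CPM on willow and 2.41 CPM in the glucose-added stage. The hyphal genes gpdA and pkiA, which encode glycolytic enzymes, had 196 CPM or more in every library. The summed level of 6 identifiers taken as markers of conidiation was 106 to 120 CPM on glucose 48 h, 226 to 238 CPM on willow and 150 to 250.5 CPM in the glucose-added stage. Members are 0.730% of the genes with an An identifier, and none of the 6 was a member. Among the 6, An09g05730 made up most of the sum in every library. It had 64.3 and 75.7 CPM on glucose 48 h, 166 and 154 CPM on willow, and 145 and 97.6 CPM with glucose added. An01g08900 was at 0 in willow B and An14g05370 in glucose-added A. Only An09g05730 and An14g05350 passed the count filter of the test described further on. The part of sporulating hyphae in the results was not tested. In whole mycelium, fewer cells that transcribe a gene and less transcript per cell cannot be told apart.

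The members together took up 6.39% (A, 95% Wilson interval 6.33% to 6.45%) and 7.25% (B, 7.19% to 7.31%) of the reads assigned to genes on glucose 48 h. They took up 0.210% and 0.260% in the willow libraries, and 0.404% and 0.380% in the glucose-added ones. These intervals, like all limits and intervals given here, cover counting error only. Among the members the mean level on glucose 48 h ran from 23.0 to 8012 CPM, with a median of 138 CPM. It was at least 1000 CPM in 11 members, between 100 and 1000 CPM in 50 and under 100 CPM in 42. The median was 6.23 CPM in the willow stage and 12 CPM with glucose added, while over all 6181 genes tested it was 44.1, 44.5 and 43.7 CPM in the 3 stages. The rule fixed these differences, so they are a description and were not tested.

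**Figure D1:**
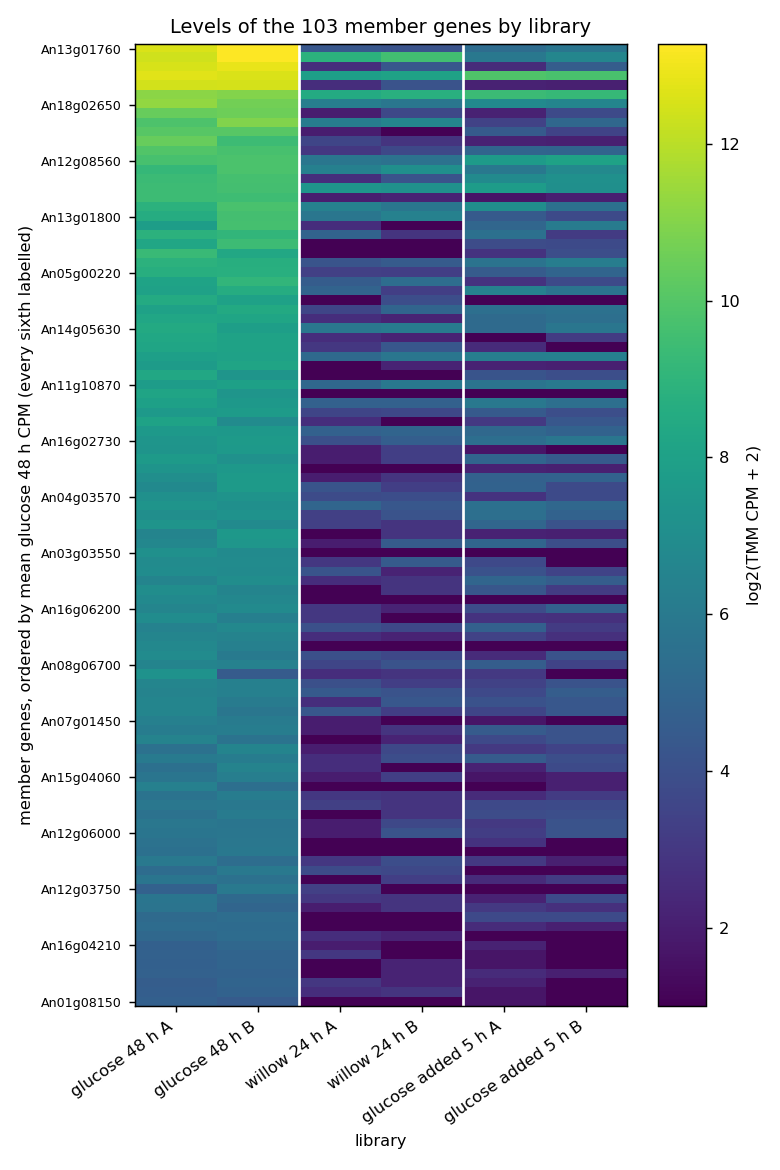
Levels of the 103 members (down the page, highest mean on glucose 48 h at the top) in the 6 libraries (across), as log2(TMM CPM + 2) in colour. Both glucose 48 h columns are brighter than the other 4 in every line, as the rule requires, and some of the top lines stay moderately bright in the later columns.

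Of 364 genes that met the conditions against the willow libraries alone, 103 (28.3%) also met them against the glucose-added libraries and so became members. In the other 261, the lower glucose 48 h value was less than 3 times the higher glucose-added value. Genes for nitrogen use and the citric acid cycle, 2 lists of known genes, gave examples of such genes. Transcripts of niaD, which encodes nitrate reductase, had 1739 and 1099 CPM on glucose 48 h, 122 and 47.0 CPM on willow, and 3278 and 2395 CPM after glucose addition. Those of citA, which encodes citrate synthase, had 429 and 695 CPM, then 94.1 and 67.9 CPM, then 511 and 325 CPM in the same stages. In the test of glucose addition against willow described further on, both tested genes of the nitrogen list (niaD and gdhA) and both of the citric acid cycle list (citA and icdA) rose. So did 3 of 4 glycolysis genes, all 3 tested starch degradation genes and the only tested gene for glucose oxidation. Of the amino acid synthesis genes, 1 (leu2A) rose and 1 (leu2B) fell. Over all 6181 genes tested, 17.2% rose and 20.5% fell. None of the 25 listed genes that were measured was a member, and 16 of them passed the count filter of the test. Members are 0.730% of the genes with an An identifier, so a count of none among so few genes says little.

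**Figure D2:**
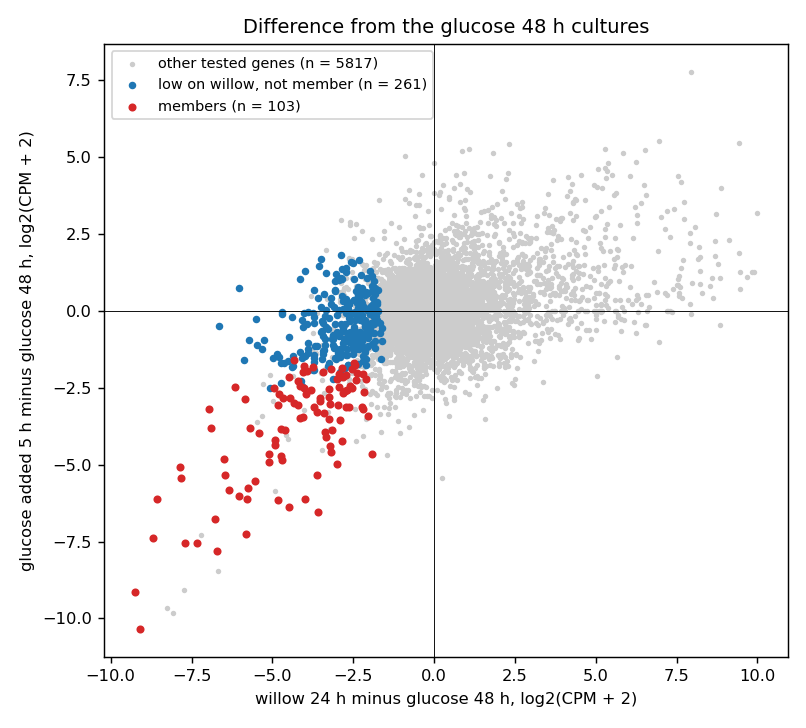
Difference of the willow stage (horizontal) and of the glucose-added stage (vertical) from glucose 48 h, in log2(CPM + 2), for all genes tested. The 103 members (red) lie low on both axes by choice, and the 261 genes low on willow that were not members (blue) lie nearer 0 on the vertical axis.

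The most abundant members were among the highest transcripts of the glucose 48 h mycelium. Levels of different genes were compared per length, on the deposited RPKM values (counts scaled to gene length and to all reads of a library). By mean RPKM on glucose 48 h, An01g14810 ranked 1 among the 14114 genes with an An identifier, at 373 and 459 RPKM. On the CPM scale, which does not allow for length, glaA of the starch degradation list was above every member. It had 34326 and 44201 CPM on glucose 48 h, against 5889 and 7507 CPM for An01g14810. The RPKM and gene length of glaA are not given here. The ranks of members thus rest on the deposited RPKM values alone, and that of An01g14810 is uncertain against glaA. An01g14820, which lies next to An01g14810, ranked 5 at 244 and 241 RPKM. An12g03760 ranked 10, An02g10320 ranked 15 and An13g01760 ranked 20, and 10 members stood among the first 100 genes.

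On the CPM scale, An01g14810 had 5889 and 7507 CPM on glucose 48 h, 4.01 and 18.3 CPM on willow, and 3.74 and 22.7 CPM after glucose addition. After glucose addition it stood at 0.197% of its glucose 48 h mean, and on willow at 0.166%. An01g14820 had 5625 and 5741 CPM on glucose 48 h, 4.01 and 15.7 CPM on willow, and 2.49 and 2.27 CPM after glucose addition. The last values rest on 3 counts over both libraries, or 0.0424% of the glucose 48 h level with a counting interval from 0.00875% to 0.124%. In both genes every later library lies far below the first stage. For An01g14820 both glucose-added values lie below both willow values, from 2 and 1 counts against 2 and 6 counts. Over all genes tested, 31.8% had such an order. The test of glucose addition against willow did not call An01g14820 (edgeR adjusted p = 0.112).

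An13g01760, with the highest mean CPM of all members, had 6121 and 9903 CPM on glucose 48 h, 18.0 and 15.7 CPM on willow, and 38.6 and 52.2 CPM after glucose addition. An01g09550 had 1383 and 1535 CPM on glucose 48 h, and at most 11.4 CPM in each of the other 4 libraries. An07g06240 had 1373 and 686 CPM on glucose 48 h, 10.0 and 5.23 CPM on willow, and 2.49 and 2.27 CPM after glucose addition. All later values of these 3 genes lie far below their first stage, and An13g01760 kept the highest later levels of them.

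Other abundant members kept a moderate level throughout. An11g01630 had 2249 and 2038 CPM on glucose 48 h, 367 and 423 CPM on willow, and 649 and 599 CPM after glucose addition, which was 29.1% of its glucose 48 h mean. An18g02650 had 2481 and 1594 CPM on glucose 48 h, 74.1 and 54.9 CPM on willow, and 117 and 95.3 CPM after glucose addition. An13g02540 had 573 and 889 CPM on glucose 48 h, 80.1 and 139 CPM on willow, and 58.6 and 107 CPM after glucose addition. The highest share of the glucose 48 h mean that any member reached was 22.7% on willow and 30.1% after glucose addition. The median member reached 4.89% and 8.47% in these stages.

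At the other end, 5 members had no count in any of the 4 later libraries. They were An03g03540, An03g03550, An13g01780, An06g01320 and An09g03660, and the last pair is named after its values were seen. An09g03660 had 282 and 166 CPM on glucose 48 h, so that its level on willow was at least 65.9-fold lower and that after glucose addition at least 92.9-fold lower. For An03g03550, with 143 and 116 CPM on glucose 48 h, these limits were 38.0-fold and 53.6-fold. For An13g01780, with 44.7 and 58.6 CPM, they were 15.2-fold and 21.4-fold. Another 9 members had no count on willow and 4 others none after glucose addition. With so few reads assigned to genes, a 0 is a value and not an absence of the transcript.

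Members near the conditions show how the choice fell. Just inside the 3-fold condition, the ratio of the lower glucose 48 h value to the highest other value was 3.01 for An07g07450, 3.02 for An16g08610 and 3.03 for An12g08560. Just outside it were An03g06140 at 2.97, An16g07280 at 2.96 and An09g04810 at 2.94. At the 20 CPM condition, An01g08150 and An07g06280 (20.8 CPM in the lower glucose library) and An12g03090 (22.4 CPM) were just inside. An03g00410 and An13g04080 (19.6 CPM) and An12g07560 (16.8 CPM) were just outside.

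Glucose 48 h replicates agreed to a median of 1.23-fold between the larger and the smaller value. Over the 4051 genes with an An identifier that reached 20 CPM in both, the median was 1.28-fold. Since the rule used the lower of these values to choose members, this is a description and was not tested. In 9 members they were more than 2-fold apart. The widest gap was in An07g06280, with 152 CPM in A and 20.8 CPM in B, and the next in An03g00670, with 225 and 810 CPM. All 4 members from An12g03750 to An12g03780 were 1.81 to 2.25 times higher in B than in A.

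Many members were neighbours, which the rule had not used. In the gene order of the reference table, 25 of the 103 members (24.3%) had another member within 2 places, against 127 of 5797 other tested genes (2.19%) that had a member that close. They formed 9 runs, 5 of them pairs and 4 of 3 to 5 members. None of the 16 successive pairs in these runs overlaps in that table. No source used here says whether reads were counted by strand.

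The longest run held 5 successive genes, An03g03520 to An03g03560, and it was nearly silent in both later stages. An03g03530 had 686 and 705 CPM on glucose 48 h, 2.0 and 2.61 CPM on willow, and 1.25 and 2.27 CPM after glucose addition. An03g03560 had 312 and 265 CPM, then 4.01 and 2.61 CPM, then 0 and 6.81 CPM in the same stages. An03g03520, the longest member at 6033 bp, had 212 and 287 CPM on glucose 48 h and at most 2.61 CPM elsewhere. The 2 genes between these, An03g03540 and An03g03550, are those without a later count. In each later stage, all 5 had 3 counts or fewer over both libraries. The test of glucose addition against willow called none of them, but so few counts could hardly give a call. It therefore says nothing about a change in this run.

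A run of 4 successive genes, An12g03750 to An12g03780, was lower at each successive stage in most of its genes. An12g03760 had 5376 and 9717 CPM on glucose 48 h, 467 and 758 CPM on willow, and 57.3 and 97.6 CPM after glucose addition. An12g03780 had 904 and 1961 CPM, then 70.1 and 94.1 CPM, then 8.72 and 31.8 CPM. An12g03770 had 278 and 535 CPM, then 22.0 and 39.2 CPM, then 4.98 and 11.4 CPM. An12g03750 was low throughout, with 26.5 and 59.8 CPM on glucose 48 h, 8.01 and 0 CPM on willow, and no count after glucose addition. In the first 3 genes named, neither glucose-added library reached the lower willow library, an order that 31.8% of all genes tested had.

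The other runs of 3 were less uniform. Between An01g14820 and An01g14840 lies An01g14830, which had 3 counts in all libraries together. An01g14840 had 479 and 530 CPM on glucose 48 h, 28.0 and 5.23 CPM on willow, and 43.6 and 6.81 CPM after glucose addition, so that its later stages overlapped. In the run from An13g01760 to An13g01800, every other gene was a member. An13g01800 had 381 and 769 CPM on glucose 48 h, 54.1 and 81.0 CPM on willow, and 19.9 and 11.4 CPM after glucose addition. The gene An13g01790 between them had 4 and 11 counts, then 24 and 13, then 9 and 1, and was thus not high on glucose 48 h.

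**Figure D3:**
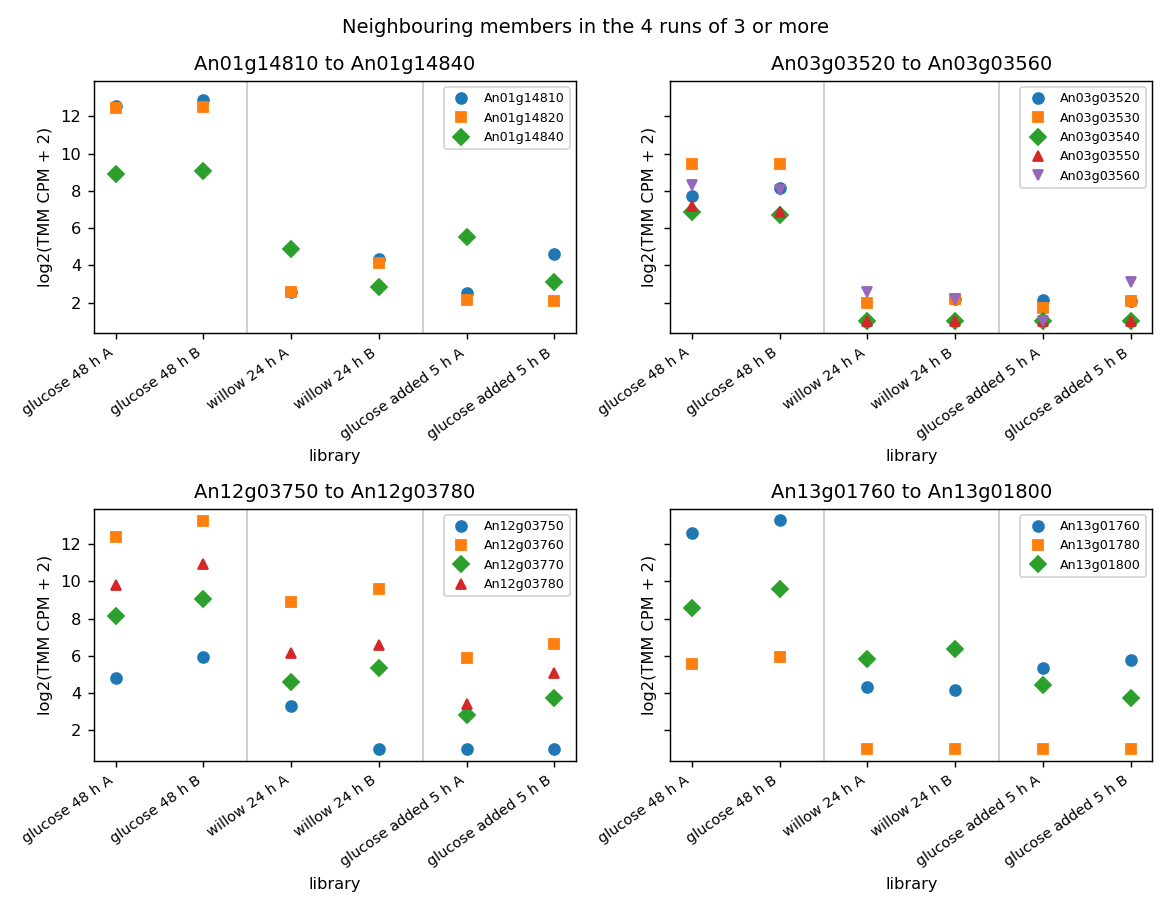
Levels, as log2(TMM CPM + 2), of neighbouring members in the 4 runs of 3 to 5 members, with the 6 libraries across in stage order and 1 symbol per gene. The run from An03g03520 drops to near 0 reads in both later stages. In the run from An12g03750 all genes but An12g03750 have both glucose-added values below both willow values. Over all genes tested, 31.8% had such an order.

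The difference between the glucose-added and the willow cultures was the contrast that the rule had not used to rank the members, although it capped both stages. It was tested over all 6181 genes with edgeR's quasi-likelihood test and Benjamini-Hochberg adjustment at 0.05, which called 17.2% of genes higher and 20.5% lower after glucose addition. Of the 103 members, 22 (21.4%) rose, 7 (6.80%) fell and 74 did not pass. These shares are not read against those of all genes, since most members entered the test only through the glucose 48 h libraries. Of the 103, 38 had 3 counts or fewer over both willow libraries. In a fit of the willow and glucose-added libraries alone, whose filter kept 31 members, 11 rose and 3 fell, while 988 of 5251 genes rose and 1193 fell. The median log2 fold change was 0.40 over the members and 0.04 over all genes. Without the 5 members that had no count in the 4 later libraries, the median over members was 0.56. In the fit of 2 stages alone it was 1.12 over the 31 members and 0.03 over all genes. On the deposited RPKM values it was 0.13 over the members and 0.20 over all genes. The median thus depends on which members entered and on the values used. Both glucose-added libraries were above both willow libraries in 39 members and below them in 14, while over all genes tested this was so in 37.1% and 31.8%. The count of members that rose was 10 without willow A and 13 without glucose-added A, and that of members that fell was 4 without glucose-added A.

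By the rule, members that rose stayed well below their first-stage level. Under all 15 alternatives, 3 of them passed. An02g10620 had 117 and 143 CPM after glucose addition, against 4.01 and 15.7 CPM on willow (log2 fold change 3.69 ± 0.52 SE, edgeR adjusted p = 5.5e-06, 9.2e-11 to 0.0366 over the alternatives). An12g08560 had 213 and 270 CPM, against 54.1 and 47.0 CPM (2.15 ± 0.37, edgeR adjusted p = 8.3e-05, 1.1e-06 to 0.0105). An02g10320 had 947 and 860 CPM, against 234 and 267 CPM (1.76 ± 0.38, edgeR adjusted p = 9.3e-04, 1.3e-06 to 0.0124). In each of the 3, both glucose-added libraries lay above both willow libraries, an order that 37.1% of all genes tested had.

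Other risers began at or near 0 on willow, so that their fold change is uncertain. An04g08060 had 16.2 and 13.6 CPM after glucose addition and no count on willow, at least 4.38-fold higher (edgeR adjusted p = 0.00268). An04g08300 had 12.5 and 11.4 CPM and no count on willow, at least 3.5-fold higher (adjusted p = 0.00737 in edgeR). An03g00670 had 31.2 and 65.8 CPM, against 4.01 and 0 CPM on willow from 2 counts, which is 19.2-fold (95% counting interval 5.05 to 162; edgeR adjusted p = 0.00161). An12g02650 had 36.1 and 43.1 CPM, against 4.01 and 2.61 CPM from 3 counts, which is 11.4-fold (95% counting interval 3.66 to 57.0; edgeR adjusted p = 2.7e-04). Among the alternatives in which they were tested, these 4 lost the call only on the deposited RPKM values (limma-trend adjusted p from 0.0587 to 0.693). The filter of the fit of 2 stages alone left out An04g08060 and An04g08300.

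Calls of 6 further risers named by rule were lost when some single libraries were left out. An02g10610, the neighbour of An02g10620, had 26.2 and 27.2 CPM after glucose addition, against 2.0 and 5.23 CPM on willow (edgeR adjusted p = 0.00451), and lost the call without willow A (0.0613). An05g01870, with 11.2 and 11.4 CPM against no count, was at least 3.32-fold higher (edgeR adjusted p = 0.0105; 0.0655 without willow A). An01g08950, with 29.9 and 29.5 CPM against 6.01 and 10.5 CPM (edgeR adjusted p = 0.0168), lost the call without willow A (0.185) or glucose-added A (0.0769), with log2 fold changes of 1.41 and 1.82 against 1.77 with all libraries. An12g05510 had 19.9 and 9.08 CPM after glucose addition, against 2.0 and 0 CPM on willow (edgeR adjusted p = 0.00727). Leaving out willow B (0.0577) or glucose-added A (0.142) ended this call, as did DESeq2 (0.0501). An17g01710 and An16g07950 (edgeR adjusted p = 0.0221 and 0.0289) lost the call without willow A (0.0836 and 0.203) or glucose-added B (0.0929 and 0.0722), the second of them also with DESeq2 (0.0920). For these 6 genes the highest adjusted p over the alternatives, on the deposited RPKM values, ran from 0.319 to 0.789. An05g01870, An12g05510, An17g01710 and An16g07950 were left out by the filter of the fit of 2 stages alone. They entered the main test only through the glucose 48 h libraries. The same holds for An03g00430 and An01g01160, which are among the remaining risers and are named after their values were seen. The remaining 9 risers had log2 fold changes from 1.25 to 2.41, and each of them lost its call without at least 1 willow or glucose-added library.

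Of the 7 members that fell further after glucose addition, 3 belong to the run from An12g03750. An12g03770, An14g01280, An11g05970 and An03g03620 were left out by the filter of the fit of 2 stages alone. These genes entered the main test only through the glucose 48 h libraries. An12g03760 fell by 3.09 ± 0.47 on the log2 scale, with 57.3 and 97.6 CPM after glucose addition against 467 and 758 CPM on willow (edgeR adjusted p = 1.6e-05, and 2.8e-11 to 0.00833 over the 15 alternatives, all of which called it). An12g03780 fell by 2.25 ± 0.55 (edgeR adjusted p = 0.00243) and An12g03770 fell by 2.08 ± 0.63 (edgeR adjusted p = 0.0117). Without glucose-added A neither was called (0.118 and 0.206), and An12g03770 was also not called without willow B (0.0727). The fourth gene, An12g03750, did not pass (edgeR adjusted p = 0.0795) and did so without willow B (0.0175), where it had no count.

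An13g01800 fell by 2.11 ± 0.49 (edgeR adjusted p = 0.00178), while An13g01760 in the same run had values that did not pass in the other direction (1.29 ± 0.56, edgeR adjusted p = 0.0736). It passed without glucose 48 h A (0.0343) or B (0.0317), with total-count scaling (0.0283) and without a count filter (0.0498). An14g01280 had no count after glucose addition and 12 and 10.5 CPM on willow, at least 4.66-fold lower (edgeR adjusted p = 0.00403; 0.0542 without glucose-added A). An11g05970 had 3.74 and 0 CPM, against 6.01 and 18.3 CPM (edgeR adjusted p = 0.0465). It lost the call without willow B (0.394) or glucose-added B (0.191), with DESeq2 (0.0676), without a count filter (0.0650), and with upper quartile (0.0583) or total-count scaling (0.0793). The call of An03g03620 (edgeR adjusted p = 0.0363) rested on willow B alone, at 13.1 CPM, since no other later library had a count, and without that library the adjusted p was 1. It was also lost without glucose-added A (0.186) or glucose-added B (0.0837) and with DESeq2 (0.274). For the 6 members that fell other than An12g03760, the highest adjusted p over the alternatives ran from 0.312 to 1.

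**Figure D4:**
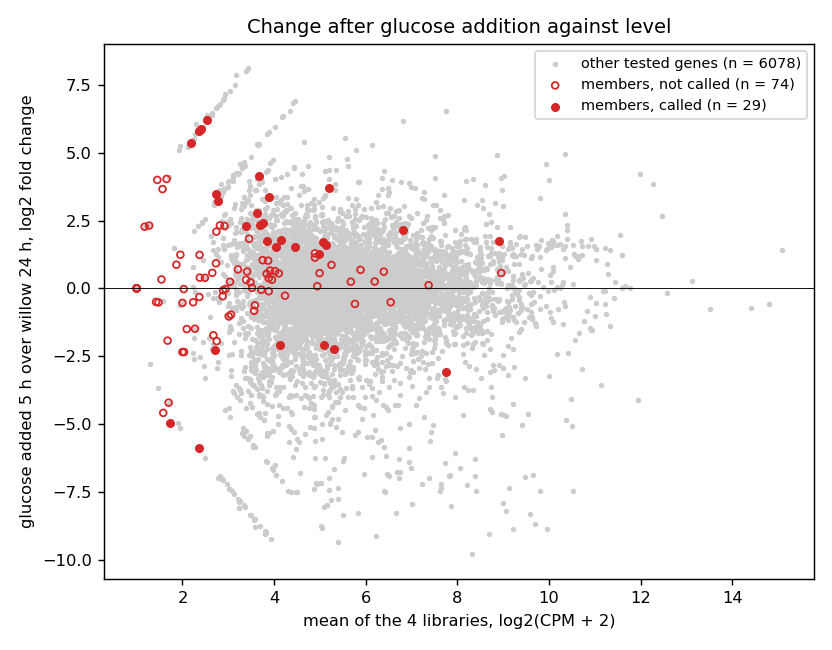
Log2 fold change of glucose added 5 h over willow 24 h against the mean of those 4 libraries in log2(CPM + 2), for all genes tested. The 29 members called (filled red) and the 74 not called (open red) lie mostly at low levels. Of the called members that fell, An12g03760 (at -3.09) lies farthest to the right.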

How the data were processed

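Per the labels' protocols, total RNA was depleted of ribosomal RNA and read on a SOLiD 5500xl. The deposited counts are whole reads per gene; the submitters' processing notes list HTSeq. Neither aligner nor genome build is given in the sources used here. The deposited RPKM columns, per the file headers the authors' own, are scaled to all reads, since only that total gives gene lengths whole to 0.01 bp in 100% of genes checked. The 5 entries per library of reads not assigned to a gene (96.9% to 98.5% of reads) were left out of library sizes.

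CPM values used TMM factors over all genes. The count test was edgeR 4.0.16 under R 4.3.3 (quasi-likelihood, with glmQLFit, glmQLFTest and default filterByExpr, 6181 genes kept, 1 fit over the 3 groups with 3 residual degrees of freedom). An SE was obtained from the log2 fold change and the root of its F statistic. All 103 members passed the filter. In the fit of the willow and glucose-added libraries alone, 31 of them passed it. The others entered through the glucose 48 h libraries, where they are high. DESeq2 1.42.0 and limma 3.58.1 served as alternatives. The procedure was tested on simulated data, with changes added to genes that otherwise had equal levels in the 3 groups. Genes high on glucose 48 h alone and low in the later stages, like the members, were not simulated. Cultures were duplicates, per the labels, and p-values measure the spread between these samples.

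The members and gene lists were chosen with earlier results of these data known. Of the fixed lists (nitrogen assimilation, glycolysis, glucose oxidation, citric acid cycle, amino acid synthesis, starch degradation, conidiation, growing hyphae), symbols were looked up in the RefSeq table (assembly ASM285v2), which gives no product names, so the planned keyword lists were not run. That table served for names and gene order. Genes named are the 15 members with the highest mean CPM on glucose 48 h, up to 10 called members per direction with the largest change, the 3 on each side of each condition, and members of the 5 longest runs. Multiply aligned reads (58.4% to 75.7% of reads) were not assigned to genes, so values of near-identical genes are uncertain.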

Additional observations from a re-analysis of the deposited data

How the results depend on the processing

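Of the 29 called members, 4 kept the call under all 15 alternatives (An02g10620, An12g08560, An02g10320 and An12g03760). Log2(deposited RPKM + 1) with limma-trend called 3 members higher and 1 lower, the same 4, and 515 of all genes lower. The median RPKM of members in the later libraries was 0.116, below the pseudocount of 1. A fit of the 2 groups alone, whose filter left 31 members tested, called 11 higher and 3 lower. Requiring 50 counts in 2 libraries, with fewer genes tested, called 596 of all genes higher and 701 lower. Leaving out 1 library gave 713 to 1163 of all genes higher and 783 to 1338 lower (783 without glucose-added A), and 10 to 23 members higher and 4 to 7 lower. Over all genes, the median log2 value shifted by 0.30 with total-count and by 0.12 with upper quartile scaling, and calls were 45.6% higher with TMM, 59.9% with total counts and 63.1% on RPKM. The number of genes that met the rule was 159 with RPKM ratios (102 of them members), 178 with a 2-fold and 55 with a 5-fold condition, and 91 to 122 under the other scalings. With the replicate letter as a block, 23 members were higher and 7 lower, and 1117 and 1315 of all genes. The A minus B deviations correlated at -0.0125, 0.112 and 0.156 between the stages, so the letters were not taken as pairs. Low counts in the later stages limit what can be told about the members there.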

Other observations

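Gene models of the members had a median length of 1260 bp, from 291 to 6033 bp, against 1458 bp over the tested genes with an An identifier. Beside the member pair An18g00740 and An18g00750 lies An18g00730, which is no member. All 3 are named after their values were seen. An18g00730 had 321 and 379 counts on glucose 48 h, 15 and 4 counts in the willow stage, and 153 and 48 counts with glucose added. In the pair, An18g00740 had 672 and 774 CPM on glucose 48 h, 166 and 144 CPM on willow, and 221 and 136 CPM after glucose addition.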
